A study of Mus musculus with 8 samples.

Results

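The alpha and beta defensin genes of the mouse were examined for the 3 methylation states of histone H3 at lysine 9, in which the residue carries a single methyl group (H3K9me1), a pair (H3K9me2) or the full set (H3K9me3). Members were all genes of GENCODE M21 (assembly GRCm38, also called mm10) whose symbol begins with Defa or Defb and that lie on chromosome 8 or 14. This gave 68 of the 55413 annotated genes, namely 39 alpha genes (22 protein-coding genes and 17 pseudogenes) and 29 beta genes, all protein-coding. Another 14 beta genes on chromosomes 1 and 2 served for comparison only. The marks had been mapped by chromatin immunoprecipitation and sequencing (ChIP-seq) in wild type mouse embryonic fibroblasts (MEFs), fibroblasts cultured from embryos, with 2 replicates for each of the 3 marks and for input DNA. By the study's methods the wild type cells are an MEF line in which Eset1, a gene for an H3K9 methyltransferase, can be deleted with tamoxifen and was still present, so every value describes 1 cell line. For each mark 1 list of enriched regions was analysed, with no score and no value per replicate. No replicate error and no test between groups can therefore be given, and the counts below describe 1 map per mark, with no read depth in the lists themselves.

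Defensins are short, cationic antimicrobial peptides held together by disulfide bonds between cysteines. Alpha defensins of the mouse, also called cryptdins, are released by the Paneth cells of the small intestine, where the protease Mmp7 cleaves the precursors, while beta defensins are made by epithelia of skin, airway and kidney and, for many members, by the epididymis. H3K9me3 and H3K9me2 are associated with silent chromatin, and H3K9me1 also occurs in transcribed genes.

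RefSeq (GRCm38.p6) listed a promoter for 31 members, 12 alpha and 19 beta. Defb40, Defb1, Defb4 and Defb14 were not among them. The 250 bases before the RefSeq start site are shown, 5′ to 3′, for 3 alpha and 3 beta genes that differ in their marks. The marks named with each gene are those found within 1 kb of a start site, and they need not cover the printed bases. At Defb42 the H3K9me2 region began after the start site and met none of the bases shown. Capitals mark matches to TATAAA, the letters of the TATA box, or to CTTTGAT, the letters bound by Tcf factors, on either strand. The 2 motifs share no position in these sequences.
Defa31 (chr8:21191323-21191572, plus strand, H3K9me3 at its start): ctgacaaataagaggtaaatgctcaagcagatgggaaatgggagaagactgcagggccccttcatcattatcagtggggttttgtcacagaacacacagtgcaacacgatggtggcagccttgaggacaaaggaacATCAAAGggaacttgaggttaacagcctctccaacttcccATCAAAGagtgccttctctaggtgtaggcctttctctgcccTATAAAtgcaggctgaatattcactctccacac
Defa32 (chr8:21528780-21529029, plus strand, H3K9me2): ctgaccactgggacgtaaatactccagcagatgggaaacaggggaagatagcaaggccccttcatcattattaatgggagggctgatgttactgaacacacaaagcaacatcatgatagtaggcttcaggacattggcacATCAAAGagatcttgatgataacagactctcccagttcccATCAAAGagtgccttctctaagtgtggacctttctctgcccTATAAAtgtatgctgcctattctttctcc
Defa37 (chr8:21565136-21565385, plus strand, H3K9me2 and H3K9me3): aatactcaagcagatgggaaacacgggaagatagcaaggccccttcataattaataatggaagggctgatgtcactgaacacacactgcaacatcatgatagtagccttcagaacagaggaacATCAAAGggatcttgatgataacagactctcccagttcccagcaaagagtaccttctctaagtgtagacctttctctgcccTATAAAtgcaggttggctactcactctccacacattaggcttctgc
Defb38 (chr8:19026569-19026818, minus strand, H3K9me2 and H3K9me3): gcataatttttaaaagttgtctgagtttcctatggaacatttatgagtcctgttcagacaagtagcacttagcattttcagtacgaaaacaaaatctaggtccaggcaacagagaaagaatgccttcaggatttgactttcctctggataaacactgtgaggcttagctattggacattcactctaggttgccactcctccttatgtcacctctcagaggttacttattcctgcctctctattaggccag
Defb3 (chr8:19293111-19293360, plus strand, H3K9me3): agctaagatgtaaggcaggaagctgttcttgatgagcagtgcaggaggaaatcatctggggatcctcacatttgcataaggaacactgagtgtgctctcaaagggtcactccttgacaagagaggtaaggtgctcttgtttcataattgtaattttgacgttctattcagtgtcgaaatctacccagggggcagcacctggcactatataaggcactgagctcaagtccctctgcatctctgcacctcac
Defb42 (chr14:63046741-63046990, plus strand, H3K9me1 and H3K9me2): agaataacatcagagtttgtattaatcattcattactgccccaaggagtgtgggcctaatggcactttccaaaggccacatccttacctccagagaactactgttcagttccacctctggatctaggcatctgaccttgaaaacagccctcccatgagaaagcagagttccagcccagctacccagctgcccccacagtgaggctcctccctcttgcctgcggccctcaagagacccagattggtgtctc

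The alpha promoters resembled each other closely and the beta promoters did not. Over whole 300-base promoters the median identity was 80.9% in 66 alpha pairs (50.9% to 100%) and 47.0% in 171 beta pairs (41.3% to 87.8%), and pairs of 1 alpha and 1 beta gene had 47.1%. CTTTGAT was found in 12 of 12 alpha promoters, each time as its reverse complement ATCAAAG on the coding strand, and in 0 of 19 beta promoters, against 3.73% of all 32851 RefSeq promoters. TATAAA was found in 11 of 12 alpha and 4 of 19 beta promoters, against 13.6% of all promoters. It lay on the coding strand in all 11 alpha promoters and in 2 of the 4 beta promoters. Only exact matches were counted, so near variants of these letters were missed. The beta pair of Defb3 and Defb8 was the most alike of its family at 87.8%, and both starts carried H3K9me3 alone.

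A start site was called marked when a region lay within 1 kb of it by at least 1 bp. H3K9me3 marked a similar share of both families, with 30 of 39 alpha genes (76.9%) and 23 of 29 beta genes (79.3%), against 12.0% of all annotated genes. H3K9me2 marked 10 alpha genes (25.6%) and 20 beta genes (69.0%), against 11.5% of all genes. H3K9me1 marked 0 alpha and 2 beta genes (6.90%), against 21.4% of all genes. Chromosome 8, which holds 63 of the members, was rich in all 3 marks, and there 36.2% of 2540 genes had a start marked by H3K9me3, 36.1% by H3K9me2 and 55.9% by H3K9me1. Read against chromosome 8, the alpha genes were above its share for H3K9me3, below it for H3K9me2 and at 0 for H3K9me1. The low H3K9me2 share was not seen in the 8 alpha genes whose start windows are at least 90% single-copy sequence (described below). Of these, 3 (37.5%) carried H3K9me2, a share that rests on few genes. The 3 were Defa-ps12, which lies among beta genes, and Defa24 and Defa-ps11, the last alpha genes before a run of beta genes. The 24 beta genes of chromosome 8 were above for H3K9me3 (22 genes, 91.7%) and for H3K9me2 (18 genes, 75.0%) and below for H3K9me1 (1 gene, 4.17%). On chromosome 14 the shares over 2532 genes were 18.3%, 16.9% and 24.4%, and its 5 beta genes had 1 start with H3K9me3, 2 with H3K9me2 and 1 with H3K9me1.

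**Figure D1:**
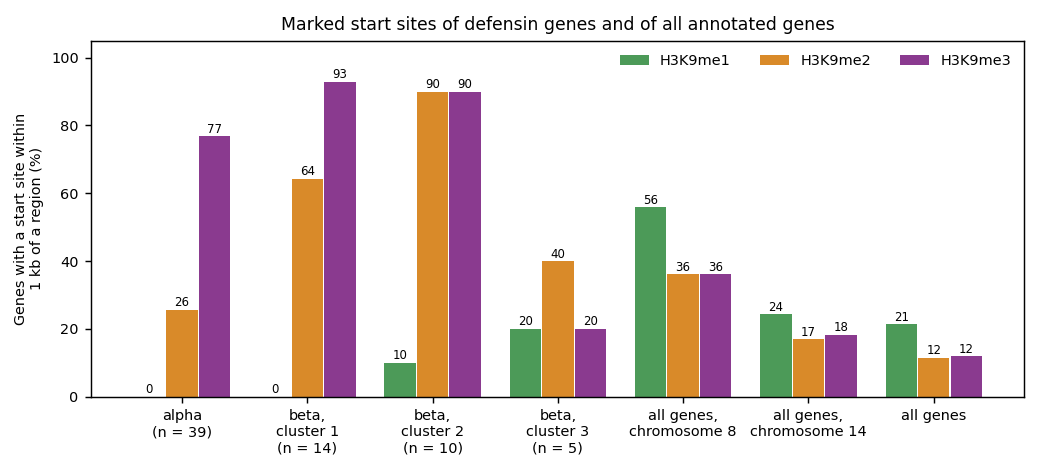
Percent of genes with a start site within 1 kb of an H3K9me1 (green), H3K9me2 (orange) or H3K9me3 (purple) region, for the alpha genes, the beta genes of each cluster and all annotated genes of chromosome 8, chromosome 14 and the main chromosomes. H3K9me3 stands at 76.9% in the alpha genes and 92.9% and 90% in the beta genes of clusters 1 and 2, whereas H3K9me2 stands at 25.6%, 64.3% and 90%.

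Gene bodies gave the same order. H3K9me3 met the body of 28 alpha genes (71.8%) and 22 beta genes (75.9%), against 15.2% of all genes, and covered 23 and 14 of these bodies from end to end. H3K9me2 met 10 alpha bodies (25.6%, 9 of them covered whole) and 21 beta bodies (72.4%, 7 covered whole), against 14.6%. H3K9me1 met 0 alpha and 6 beta bodies (20.7%), against 26.7%, and covered none of them whole. Unlike for starts, body shares over the genes of chromosome 8 alone were not computed. Alpha genes are short, with a median length of 956 bp against 3111 bp for beta genes, and the regions are built from bins of 750 bp.

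Among alpha genes, 21 starts (53.8%) carried H3K9me3 alone, a class that held 7.01% of the genes of chromosome 8. A further 9 starts (23.1%) carried H3K9me2 and H3K9me3, 1 (2.56%) carried H3K9me2 alone and 8 (20.5%) carried no mark. On chromosome 8 these classes held 9.37%, 1.85% and 25.9% of genes. H3K9me3 was found both at coding genes (16 of 22) and at pseudogenes (14 of 17), as was H3K9me2 (7 of 22 and 3 of 17). The longest run of neighbouring members of 1 class went from Defa31 to Defa27, 8 members that all had H3K9me3 alone. Among them lies an unmarked gene, Gm15292, that RefSeq calls Defa40 and that is no member by its GENCODE name. The run holds Defa3 and Defa5, cryptdin genes that share 1 H3K9me3 region of 23.25 kb. It covered 100% of their start windows, 1 kb on either side of the 5′ end. Defa30 stood in a region of 18.75 kb and Defa31 in one of 9.75 kb, each over the whole start window. A few H3K9me3 calls in this class rest on narrow regions or on the edge of the window. Defa26 and Defa-ps17 were met by single bins of 0.75 kb that covered 37.5% of each window, Defa25 by a region of 1.5 kb over 65.4%, and Defa-ps4 by the end of a 9 kb region over 8.30%.

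The 9 alpha genes with both marks were Defa-ps12, Defa35, Defa29, Defa36, Defa37, Defa17, Defa-ps1, Defa24 and Defa-ps11. Defa35 (chr8:21065038-21065996) was covered over its whole body and start window by an H3K9me2 region of 4.5 kb inside an H3K9me3 region of 12.75 kb. The pseudogene Defa-ps12 (chr8:19210462-19212767), 1 of the 4 alpha members of cluster 1, was covered whole by both marks, in regions of 6.75 kb and 26.25 kb. Defa36 (chr8:21427411-21428391) had its body covered 100% by H3K9me2 and 9.17% by H3K9me3. At the end of the alpha genes next to the beta genes, Defa24, a cryptdin gene, and the pseudogene Defa-ps11 had bodies covered 100% by H3K9me2 and 0% by H3K9me3, and H3K9me3 reached only 37.8% and 8.75% of their start windows. Whole-body cover by H3K9me3 was tied among 23 alpha members, of which Defa-ps12, Defa-ps14 and Defa-ps15 come first along the chromosome.

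Defa32 (chr8:21529032-21530012) was the alpha gene with H3K9me2 alone. Its body and start window were covered 100% by an H3K9me2 region of 5.25 kb, and the nearest H3K9me3 lay 4.78 kb from its 5′ end. Of the 8 alpha genes without a mark, 5 are protein-coding: Defa21, Defa23, Defa22, Defa2 and Defa20. Several lay close to a region: Defa23 was 1.20 kb from the nearest H3K9me3, Defa-ps13 1.32 kb, Defa-ps9 1.35 kb, and Defa21 1.54 kb from the nearest H3K9me2. Defa22, Defa2 and Defa20 were 4.97 kb, 9.99 kb and 14.2 kb from the nearest mark, which was H3K9me3.

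**Figure D2:**
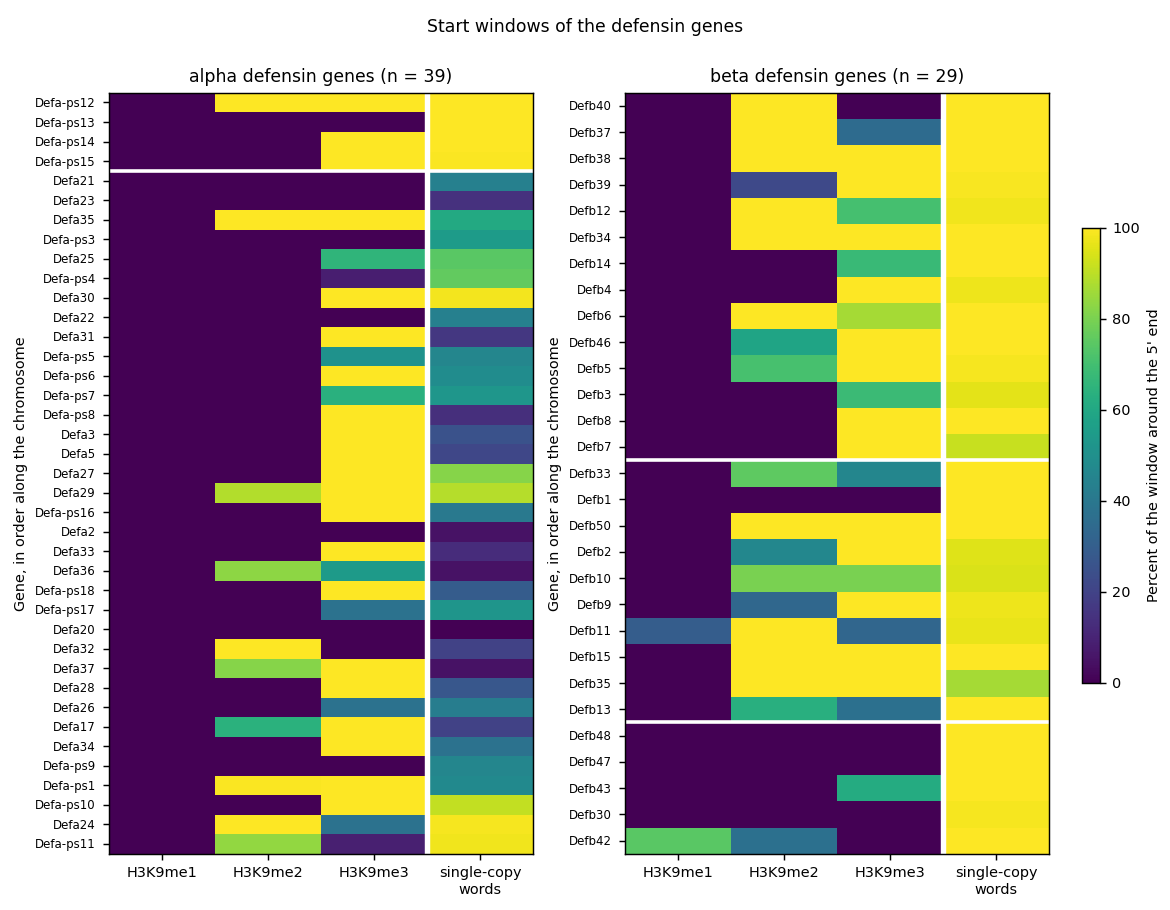
Percent of the window 1 kb on either side of the 5′ end covered by each mark, and percent of its 100-base words that occur once in the genome, for each of the 39 alpha genes (left) and 29 beta genes (right) in chromosome order, with white lines between clusters. The H3K9me1 column is dark in all alpha genes, and the column of single-copy words is near 100% in the beta genes and mixed in the alpha genes; Defb30 appears without H3K9me2 because its marked start is not its 5′ end.

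Many alpha genes are near copies, and this limits what a short read can tell. The share of 100-base words in a start window that occur once in the genome, on either strand, had a median of 45.9% in alpha genes (0% to 100%) and of 100% in beta genes (86.5% to 100%), where 100 bases is the read length of the study. How reads with several matches were handled is not given in the sources used here. Defa23 and Defa31 have identical 300-base promoters, whose first 250 bases are shown above for Defa31, yet Defa23 had no mark and the Defa31 window was covered 100% by H3K9me3. Their start windows held 14.1% and 16.2% single-copy words. The promoters of Defa2, Defa20 and Defa32 share a run of 298 bases with 0 mismatches, with Defa2 and Defa20 unmarked and Defa32 under H3K9me2, and their windows held 5%, 0% and 19.6% single-copy words. The pairs of identical promoters in 1 class were Defa2 with Defa20, Defa21 with Defa22, and Defa36 with Defa37. The windows of Defa36 and Defa37, both marked, held 4.75% and 5% single-copy words.

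With the windows sorted by single-copy share, 8 alpha genes had at least 90%, and of these 7 carried H3K9me3 (87.5%) and 3 carried H3K9me2 (37.5%). Of 27 alpha genes with 10% to under 90%, 21 carried H3K9me3 (77.8%) and 5 carried H3K9me2 (18.5%). The 28 beta genes with at least 90% had 22 starts with H3K9me3 (78.6%) and 19 with H3K9me2 (67.9%). The 8 alpha genes include 4 pseudogenes of cluster 1, and the difference in H3K9me2 between them and the 28 beta genes was not tested.

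Among beta genes, 16 starts (55.2%) carried H3K9me2 and H3K9me3 together, all of them on chromosome 8, where the class held 9.37% of genes. They include Defb37, Defb38 and Defb39, genes known from the epididymis, and the last member of cluster 2, Defb13 (chr8:21946762-21948850), whose start window was covered 63.1% by H3K9me2 and 36.9% by H3K9me3. Defb33 (chr8:20892669-20897723), which opens cluster 2, had 75.0% and 45.9% of its window covered. Whole bodies were covered by H3K9me2 in 7 beta genes, of which Defb37, Defb12 and Defb34 come first along the chromosome, and by H3K9me3 in 14, led by Defb38, Defb12 and Defb34. Defb12 and Defb34 shared 1 H3K9me2 region of 44.25 kb (chr8:19104001-19148250), the widest over cluster 1. The cover by each mark varied within the class. Defb38, Defb34, Defb50, Defb15 and Defb35 had 100% of the window under both marks, while H3K9me2 reached 22.0% of the window of Defb39, 33.5% of that of Defb9 and 46.3% of that of Defb2, each with 100% under H3K9me3. Defb37 had the reverse, with 100% under H3K9me2 and 34.8% under H3K9me3. At Defb10 both marks covered 80% of the window and 19.3% of the body.

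Another 6 beta genes had H3K9me3 alone: Defb14, Defb4, Defb3, Defb8, Defb7 and Defb43. Defb14 (chr8:19194357-19195212), the counterpart of human beta-defensin 3, and Defb4 (chr8:19198706-19201545), an inducible epithelial defensin, lay in the same H3K9me3 region of 26.25 kb, with 67.8% and 100% of their windows covered. The nearest H3K9me2 was 1.11 kb from the Defb14 start and 5.46 kb from that of Defb4. Defb7 (chr8:19495097-19497775), the last gene of cluster 1, had its window and body covered 100% by an H3K9me3 region of 24 kb.

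Few beta genes fell outside these classes. Defb40 (chr8:18974940-18978256, minus strand), which opens cluster 1, had H3K9me2 alone, over 100% of the start window and 52.9% of the body in a region of 5.25 kb, with H3K9me3 10.2 kb away. Defb11 (chr8:21905376-21906412, minus strand) had all 3 marks, at 29.4%, 100% and 33.1% of the window. Defb1 (chr8:21776599-21795185), the constitutive beta defensin of kidney and airway epithelium, was the unmarked beta gene of chromosome 8. H3K9me3 came within 1.15 kb of its start and H3K9me2 within 1.90 kb, and they covered 48.4% and 32.3% of its 18587 bp body.

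The 5 beta genes of chromosome 14 held 4 different classes. Defb48 (chr14:62977524-62984510, minus strand) and Defb47 had no mark, the nearest lying 18.3 kb (H3K9me1) and 10.9 kb (H3K9me3) away. Defb43 had H3K9me3 over 61.5% of the window. Defb42 (chr14:63046991-63058149), with 5 annotated start sites, had H3K9me1 over 74.5% and H3K9me2 over 37.0% of the window at its 5′ end. Defb30 overlaps Defb42 on the other strand and has 4 start sites. Its 5′ end was unmarked, another of its starts was marked by H3K9me2, and its body was covered 33.1% by H3K9me1 and 37.8% by H3K9me2. These and Defb11 were the beta genes with the largest H3K9me1 share of the body, 66.4% for Defb42 and 60.3% for Defb11.

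Regions at the starts varied widely in width, and a region that several genes share enters once for each. The widest H3K9me2 region at a start had a median width of 4.88 kb over 10 alpha windows (2.25 to 14.25 kb) and of 8.25 kb over 19 beta windows (1.5 to 44.25 kb), and for H3K9me3 the medians were 13.1 kb over 30 alpha windows (0.75 to 44.25 kb) and 16.5 kb over 23 beta windows (2.25 to 31.5 kb). Within cluster 1 the order for H3K9me3 was the reverse, with 26.2 kb over 3 alpha and 16.5 kb over 13 beta windows. Base composition was alike, with a median GC share of the start windows of 42.1% in alpha and 42.7% in beta genes and a median of 11 CpG in both families. Soft-masked repeats took a median of 15% of alpha and 21.3% of beta windows.

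Members up to 250 kb apart were joined into clusters, which gave 3. Cluster 1 (chr8:18974940-19497775) spanned 523 kb with 14 beta genes and 4 alpha pseudogenes, cluster 2 (chr8:20892669-21948850) spanned 1056 kb with 35 alpha and 10 beta genes, and cluster 3 (chr14:62977524-63058149) spanned 80.6 kb with 5 beta genes. H3K9me3 covered 64.7% of cluster 1 and 59.2% of cluster 2, against 37.7% of chromosome 8. H3K9me2 covered 37.2% and 18.3%, against 33.9%. In the 426 bins of cluster 2 with at least 90% single-copy sequence it covered 39%. This filter also changes which part of the cluster is counted. Of these bins 195 lie in the run of beta genes described below and 63 in the run of alpha genes. Among all 1408 bins of the cluster these runs hold 229 and 965. The share of the whole chromosome was not limited to single-copy bins. H3K9me1 covered 1.58% and 1.42%, against 35.5%. Both clusters of chromosome 8 were thus denser in H3K9me3 than their chromosome and almost without H3K9me1. Cluster 3 had 3.72% H3K9me3, 14.4% H3K9me2 and 19.1% H3K9me1, against 11%, 8.71% and 11.2% of chromosome 14.

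**Figure D3:**
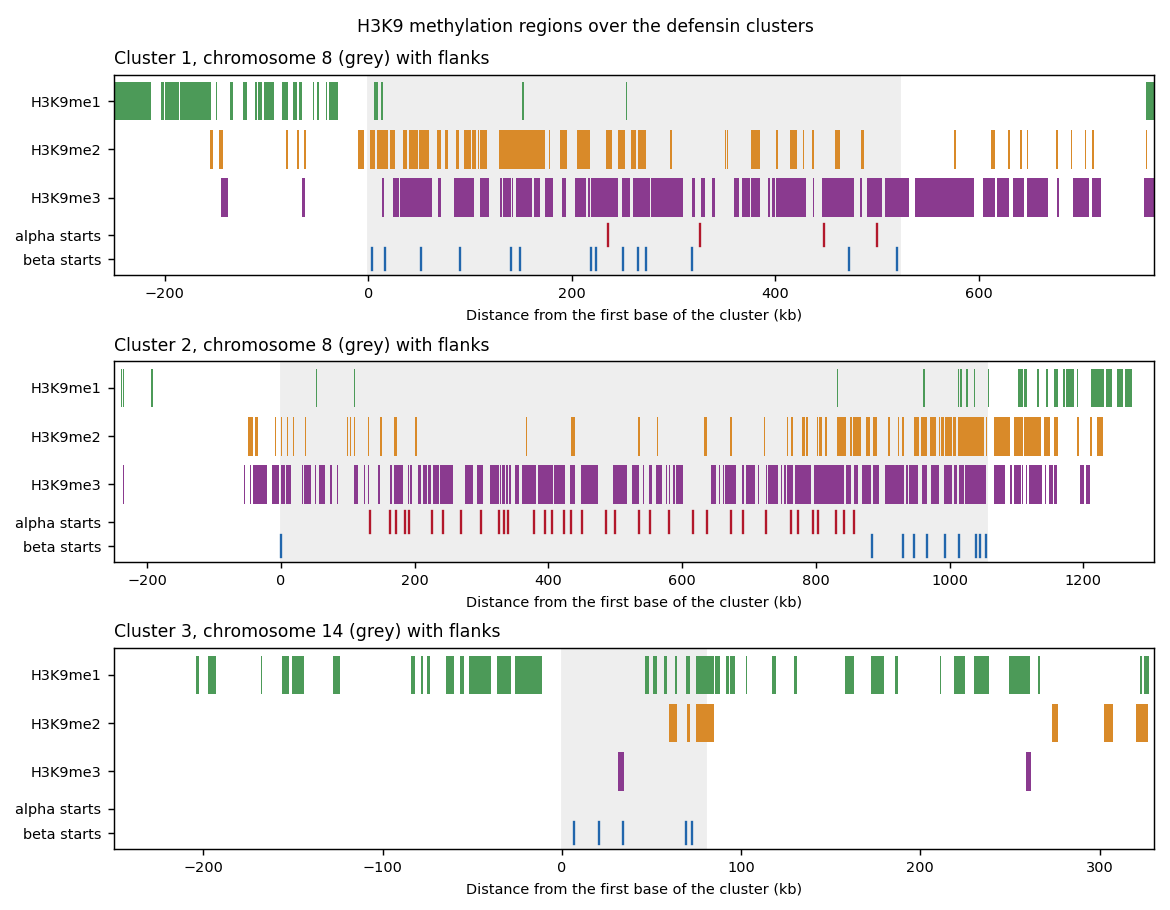
Regions of H3K9me1 (green), H3K9me2 (orange) and H3K9me3 (purple) along the 3 defensin clusters (grey) and 250 kb on either side, with the 5′ ends of alpha (red) and beta (blue) genes, by distance in kb from the first base of the cluster. H3K9me3 covers 64.7% and 59.2% of clusters 1 and 2, H3K9me2 is sparse over the alpha genes of cluster 2 and dense over the beta genes at its right end, and cluster 3 holds 1 H3K9me3 region.

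Within cluster 2 the marks differed between the alpha and the beta genes. The run of alpha genes from Defa21 to Defa-ps11 (chr8:21025545-21750000, 724 kb) was covered 59.3% by H3K9me3, 9.52% by H3K9me2 and 0.207% by H3K9me1. The run of beta genes that follows, from Defb1 to Defb13 (chr8:21776599-21948850, 172 kb), was covered 74.5%, 57.0% and 6.53%. Of the H3K9me3 bases, 11.3% also lay in an H3K9me2 region in the alpha run, 63.7% in the beta run, 41.9% in cluster 1 and 68.5% over chromosome 8. The split into runs was made after the data were seen.

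The widest H3K9me3 region over the alpha run (chr8:21690001-21734250, 44.25 kb) met the starts of Defa-ps1, Defa-ps10 and Defa24. The widest H3K9me2 region over the beta run (chr8:21905251-21944250, 39 kb) met Defb11, Defb15 and Defb35. Regions were shared in this way throughout, so that 16 H3K9me3-marked starts in cluster 1 came from 12 regions and 36 such starts in cluster 2 from 31, and 10 and 18 H3K9me2-marked starts came from 8 and 16 regions. Neighbouring members had the same class in 11 of 17 pairs in cluster 1, 18 of 44 in cluster 2 and 1 of 4 in cluster 3.

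The 2 runs also differ in sequence. In the alpha run 40.3% of 100-base words occurred once in the genome, against 93.2% in the beta run and 91.7% in cluster 1. Bins of 750 bp were therefore compared within classes of single-copy share, a comparison added after the data were seen. The class from 10% to under 90% is wide, and shares within it were not matched between the runs and cluster 1. In bins with at least 90% single-copy words, H3K9me2 covered 34.9% of 63 bins in the alpha run, 59.0% of 195 in the beta run and 38.1% of 590 in cluster 1. In bins with 10% to under 90%, it covered 7.50% of 800 bins in the alpha run, 53.3% of 30 in the beta run and 36.7% of 90 in cluster 1. The sparse H3K9me2 of the alpha run was thus seen in its repeated bins, which make up most of it, and less so in its 63 single-copy bins. Position along the run was not separated from single-copy share. Among its start windows with at least 90% single-copy words, those of Defa24 and Defa-ps11, next to the beta genes, carried H3K9me2. Those of Defa30 and Defa-ps10 did not. H3K9me3 covered 61.9% of the single-copy bins of the alpha run and 60.8% of those with 10% to under 90%, against 73.3% and 90% in the beta run and 64.1% and 73.3% in cluster 1. In the least unique bins of the alpha run, under 10%, H3K9me3 covered 47.1% and H3K9me2 9.80% of 102 bins. The part of read mapping in the difference between the runs was not tested.

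**Figure D4:**
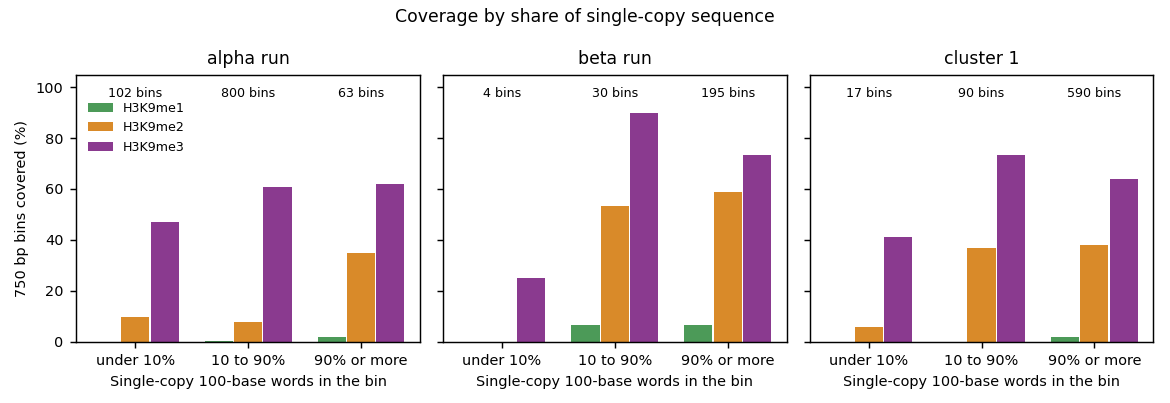
Percent of 750 bp bins covered by each mark in the alpha run, the beta run and cluster 1, with bins sorted by the share of their 100-base words found once in the genome and the number of bins above each group. H3K9me2 (orange) in the alpha run stands at 9.80%, 7.50% and 34.9% from the least to the most unique bins, while H3K9me3 (purple) stands at 47.1%, 60.8% and 61.9%.

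Around the 5′ ends, H3K9me3 formed no narrow peak, though its cover varied with distance. The base at the 5′ end was covered in 27 of 39 alpha genes (69.2%), that 5 kb before it in 23 (59.0%) and that 5 kb after it in 25 (64.1%). For the 24 beta genes of chromosome 8 the same positions were covered in 18 (75.0%), 15 (62.5%) and 17 (70.8%). H3K9me2 in alpha genes was covered at the 5′ end in 10 (25.6%) and at 5 kb on either side in 3 (7.69%), whereas in the beta genes of chromosome 8 it was covered in 15 (62.5%), 16 (66.7%) and 12 (50%). Alpha genes lie close together, and positions 10 kb from one start can fall at another.

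**Figure D5:**
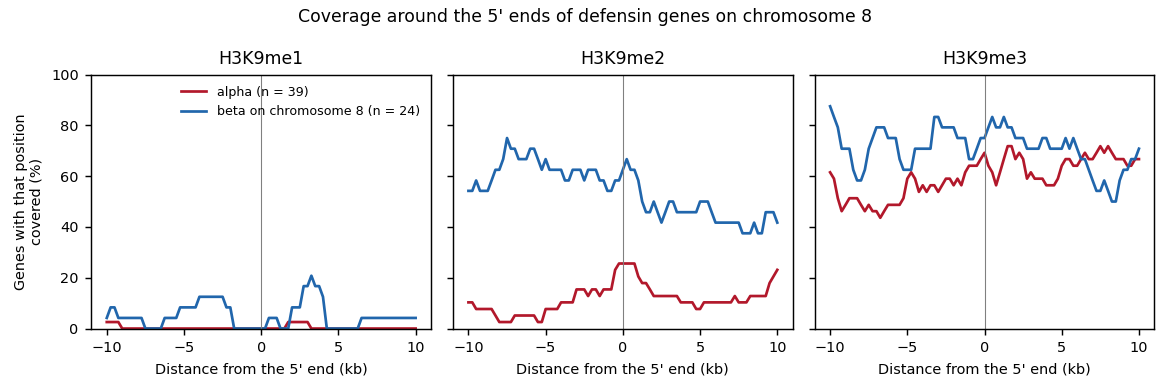
Percent of alpha genes (red, n = 39) and of beta genes of chromosome 8 (blue, n = 24) whose position at a given distance in kb from the 5′ end lies in a region of each mark, negative before and positive after the 5′ end in the direction of the gene. H3K9me3 is broad in both families, and H3K9me2 in alpha genes stands at 25.6% at the 5′ end and at 7.69% at 5 kb on either side.

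The flanks of 250 kb differed from side to side. Below cluster 1 the flank with Angpt2, Agpat5 and Xkr5 had 53.2% H3K9me1, 7.50% H3K9me2 and 3.90% H3K9me3, and the map changed to 1.58%, 37.2% and 64.7% inside the cluster. Above cluster 1, H3K9me3 went on over 63.1% of the flank with 7.91% H3K9me2 and 3.41% H3K9me1. There H3K9me3 covered 84.2% of the nearest 100 kb and 57.4% of 500 kb. The flank below cluster 2, of which 40% is unsequenced (N), had 24.5% H3K9me3. Above cluster 2 the shares were 32.4% H3K9me3, 37.5% H3K9me2 and 36.6% H3K9me1, but the nearest 100 kb had 63.8%, 72.3% and 20.2%, and 500 kb had 21.9%, 28.6% and 50.4%. In this flank Fam90a1a and Ccdc70 were marked by H3K9me2 and H3K9me3 and Alg11, Nek3 and Vps36 by H3K9me1. Nek5 carried H3K9me1 and H3K9me3, and Atp7b and Ckap2 had no mark. Beside cluster 3 the flanks had 27% and 24.7% H3K9me1 and at most 1.20% H3K9me3. Ctsb, Fdft1 and Gata4 carried H3K9me1 alone, and Ints6, Wdfy2 and Neil2 had no mark.

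Cluster 1 held 8 genes of other names, of every biotype, with 7 starts marked by H3K9me3, 3 by H3K9me2 and 0 by H3K9me1. Cluster 2 held 33, with 26, 13 and 2, and AY761185 was 1 of those with H3K9me1, beside H3K9me3. The single such gene of cluster 3 carried H3K9me1. RefSeq gives defensin symbols to 6 genes of cluster 2 that GENCODE M21 names otherwise, Defa38 to Defa43. H3K9me3 marked 4 of them, H3K9me2 marked 2, and 1, Defa40 (Gm15292), had no mark. Spag11b and Spag11a, epididymal genes with a beta defensin-like domain that sit between Defb34 and Defb14, differed, with H3K9me2 and H3K9me3 over the whole body of Spag11b and no mark at Spag11a.

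Of the 11 beta defensin genes on chromosome 2, H3K9me1 marked 7 starts (63.6%), H3K9me2 marked 2 (18.2%, Defb28 and Defb45) and H3K9me3 marked 0, against 25.7%, 4.71% and 5.71% of the 3803 genes of that chromosome. The 3 on chromosome 1 had no mark at a start, where the shares over 3445 genes were 15.3%, 3.28% and 5.83%. Of 24 other genes of antimicrobial defence and Paneth cells, H3K9me1 marked 12 starts, H3K9me2 marked 5 and H3K9me3 marked 4, and 11 had no mark. Without the Spag11 pair of cluster 1 the counts were 12, 4, 3 and 10 of 22. Over all genes the shares were 21.4%, 11.5% and 12.0% for the 3 marks and 71.2% for no mark. Shares differ between chromosomes, and the listed genes were not compared with those of their own chromosomes. Mmp7, which activates alpha defensins, had H3K9me1, Ccr6, a receptor for beta defensins, had all 3 marks, and the Paneth cell and gut lectins Reg3a, Reg3b and Reg3g had none. Lyz1, the Paneth cell lysozyme, was covered 100% by each of the 3 marks.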

How the data were processed

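The authors aligned paired-end reads of 100 bp to mm10 (GRCm38) with bwa 0.7.1 and called enriched regions with histoneHMM. How the replicates, the input and reads with several matches entered the call is not given in the sources used here. The deposited lists held 3 columns (chromosome, start, end) and no score, count or p-value, and 0 positions lay off a 750 bp grid with starts read as 1-based. The samples were 2 replicates each of input, H3K9me1, H3K9me2 and H3K9me3, and no list of the input was analysed here. The lists held 42704, 29119 and 27108 regions, and no depth can be derived from them.

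Genes and start sites came from GENCODE M21. A start was marked when a region came within 1 kb, and a body when a region overlapped it by at least 1 bp. Shares of clusters and flanks leave N bases out. The members, the gene lists and the genes to be named were chosen with earlier results of these data known. Named with full values were Defb40, Defb1, Defb4, Defb14, the first and last member of each cluster, the 3 members of each family with the largest body share of each mark (ties in chromosome order) and members of classes with 3 or fewer of a family. Further genes were named after their values were seen. Single-copy words were 100-base words found once on both strands of the 21 main chromosomes. Promoters and symbols came from RefSeq tables, and identities from global alignments (Biopython 1.88). No test was made, since no list held replicate values and neighbouring genes share regions. Interval and word counts were tested on simulated data. Python 3.11.15 and NumPy 2.4.6 were used.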

Additional observations from a re-analysis of the deposited data

How the results depend on the processing

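No paired analysis was possible because each mark had a single list without replicate values, and for the same reason leaving out a replicate was not run. Start counts stayed within 1.5 times under 51 of 60 alternatives and body counts under 24 of 30. Some of these could not change a count, since all beta genes are protein-coding and each alpha gene has 1 start site. Raw counts were compared, so settings that leave out genes also lower them. With windows of 2 kb, H3K9me1 met 1 alpha and 6 beta starts. With regions of at least 2 kb it met 1 beta start and 3 beta bodies, and with regions of at least 5 kb 1 of each, while H3K9me2 met 5 alpha starts and 5 alpha bodies. With at least 0.5 of the window or body covered, H3K9me1 met 1 beta start and 2 beta bodies and H3K9me2 met 13 beta bodies. With protein-coding genes only, H3K9me3 met 16 of 22 alpha starts (72.7%) and 15 of 22 alpha bodies (68.2%), against 76.9% and 71.8% of all alpha genes. With windows of at least 90% single-copy words, chosen after the data were seen, H3K9me2 met 3 (37.5%) and H3K9me3 met 7 (87.5%) of 8 alpha starts. Under each alternative run for starts, the share of alpha genes with H3K9me2 was below that of beta genes.

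Cluster shares stayed within their 95% Wilson interval over 750 bp bins, which covers counting only and treats bins as independent, under 37 of 60 alternatives, and flank shares under 45 of 90. Some of these alternatives could not change a value. The clusters hold no N bases, nor do the flanks other than that below cluster 2, so counting all bases gave the same share. Joining members up to 1000 kb apart gave the same 3 clusters, and joining up to 100 kb left cluster 3 as it was. Joining members up to 100 kb apart gave 5 clusters, with H3K9me2 over 50% of the first and H3K9me3 over 62.4% of the part with the alpha genes. With regions of at least 5 kb, cluster 1 had 0%, 28.5% and 58% of H3K9me1, H3K9me2 and H3K9me3, cluster 2 had 0%, 11.6% and 51.6%, and cluster 3 had 7.01%, 7.01% and 0%. With regions up to 5 kb apart joined, H3K9me2 covered 42.3% of cluster 1 and 22.0% of cluster 2, H3K9me3 covered 70.9% and 69.1%, and H3K9me1 covered 42.4% of cluster 3. In single-copy bins H3K9me1 covered 3.29% and H3K9me2 39% of cluster 2. For the alpha run alone the H3K9me1 and H3K9me2 shares were 0.207% and 9.52%, and for the beta run alone the 3 shares were 6.53%, 57.0% and 74.5%. The cause of the difference in single-copy bins was not tested.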
